A study of Mus musculus with 10 samples.

Results

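Trp53, Cul9, Mdm2, Cdkn1a, Cdkn2a, Ccng1, Eda2r, Phlda3, Trp53inp1 and Sesn1 are the p53 gene itself, a pair of ubiquitin ligase components that bind its protein, inhibitors of the cell cycle that mark senescence, and direct p53 targets. They are 10 of the 24537 genes in a table of read counts from 10 mouse livers, and they were taken by symbol from a list. Cul9 was chosen by its measured counts, for their rise from young to old livers, so its difference between old and young livers is described here without a test. All 10 genes passed the filter on low counts that left 13909 genes for testing, but Cdkn2a passed it only through the old livers.

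The livers came from male mice given an adeno-associated virus of serotype 8. The knockout virus is AAV8-TBG-saCas9-U6-sgCd44, in which the hepatocyte promoter TBG drives the small Cas9 of Staphylococcus aureus and the U6 promoter drives a guide RNA. Controls are labelled as edited at Rosa26, so no group was without editing, and the make-up of the control virus is not spelled out. The young control livers (Rosa26-KO, 3 livers, 9 months) and the old control livers (Rosa26-KO, 3 livers, 25 months) carry the edit at Rosa26, a locus commonly used as a neutral site. The old knockout livers, 4 in number and also of 25 months, had a guide against Cd44, which encodes a cell surface receptor. Replicates 1 and 2 had guide 4 (Cd44-KO_g4) and replicates 3 and 4 had guide 2 (Cd44-KO_g2). Virus was given at 7 months in the young and at 23 months in the old mice. Whole liver was sequenced, so cells in which TBG is not active were measured together with the hepatocytes. The series concerns hepatocyte Cd44 in the aged liver, and no label ties it to p53 or senescence.

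The p53 protein is a transcription factor that is held at a low level by Mdm2, its own target and the ubiquitin ligase that marks it for destruction, and that accumulates after DNA damage and other stress. It then binds paired copies of a short half-site in DNA and turns on genes that stop the cell cycle, repair damage, slow growth signals or kill the cell. Cdkn1a and Cdkn2a encode inhibitors of the cyclin-dependent kinases (CDKs), and their lasting expression is a common sign of senescence, a stable exit from the cell cycle that increases in many ageing tissues, the liver among them.

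RefSeq start sites on GRCm38.p6 gave 12 promoter windows for 9 of these genes, each running from 250 bases before the start to 50 after it. Trp53inp1 was without one. Each window was searched on both strands for the p53 consensus half-site, a motif of 10 bases that reads the same on either strand, allowing overlap. A half-site lay in 5 of the 12 windows, those of Cdkn1a, Mdm2, Ccng1, Trp53 and Sesn1, and in 8.36% of all 32851 windows of this length. Paired half-sites at most 13 bases apart, a full p53 site, lay in 24 of the 32851 windows (0.0731%) and, among the members, in the upstream window of Cdkn1a alone. The stretches around the matches are shown 5′ to 3′ on the gene's strand because they set the members apart by sequence, with the half-sites in capitals.
Cdkn1a, chr17:29090886-29090957, plus strand: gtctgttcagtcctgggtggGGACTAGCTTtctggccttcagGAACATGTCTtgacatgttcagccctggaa
Mdm2, chr10:117710915-117710964, minus strand: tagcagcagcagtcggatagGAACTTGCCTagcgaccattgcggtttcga
Ccng1, chr11:40755442-40755491, minus strand: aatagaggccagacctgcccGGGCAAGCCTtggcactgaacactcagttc
Trp53, chr11:69580264-69580313, plus strand: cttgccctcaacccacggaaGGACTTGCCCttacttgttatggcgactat
Sesn1, chr10:41887246-41887295, plus strand: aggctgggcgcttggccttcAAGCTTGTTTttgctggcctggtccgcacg

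These matches describe letters and no binding was measured. The Cdkn1a stretch runs from 93 to 22 bases before the more upstream start, whose window is chr17:29090729-29091028. The second Cdkn1a window, chr17:29093519-29093818, held no half-site, and the stretch lies far upstream of it. Whether the stretch is one of the well-studied p53 sites upstream of Cdkn1a was not examined. Well-studied sites of Mdm2 lie in its first intron, which was not read here. The windows of Cul9, Cdkn2a, Phlda3 and Eda2r held no match, which says only that these letters are not in those windows.

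Depth was similar across libraries, with 15821198 to 21710228 total counts per liver. Levels are given as CPM, counts scaled to library size with factors from the trimmed mean of M values (TMM), and 3 counts, taken as the smallest detectable amount, were worth 0.131 to 0.198 CPM. The TMM factors were 0.824 to 0.897 in young and 0.966 to 1.12 in old livers, so scaling by total counts alone would raise the median log2 fold change of all genes by 0.31 in the age comparison. Cd44, the targeted gene, had 14.2, 29.97 and 25.9 CPM in the old control livers and 18.9, 29.0, 17.6 and 13.1 CPM in knockout replicates 1 to 4. The spread of Cd44 between livers exceeded its difference between the libraries labelled knockout and the old controls (log2 fold change -0.25, SE 0.30, edgeR adjusted p 0.896), and directions of the knockout comparison rest on the labels. Old control replicate 2 had the highest sums of T cell, B cell, macrophage, Kupffer cell and neutrophil markers of the 10 livers, and the library name of old control replicate 3 lies outside the run of the other names. The labels do not say that the livers of a group came from separate animals, so p-values measure the spread between these samples.

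Trp53 (chromosome 11, 69580359 to 69591873, plus strand, GRCm38) had 41.2, 50.05 and 38.3 CPM in the young livers, 37.8, 39.7 and 34.8 CPM in the old control livers and 41.4, 32.9, 29.75 and 36.0 CPM in knockout replicates 1 to 4. The groups overlapped in their values, and young replicate 2 was the highest liver. Young livers averaged 43.2 ± 6.12 CPM (SD, n = 3), old control livers 37.4 ± 2.48 CPM (SD, n = 3) and knockout livers 35.01 ± 4.97 CPM (SD, n = 4). The log2 fold change with age was -0.21 (SE 0.15, edgeR adjusted p 0.321), within an interval of -0.53 to 0.12 at 95% confidence, and total-count scaling turned it to 0.11. Knockout livers differed by -0.30 from young livers (SE 0.14, edgeR adjusted p 0.147) and by -0.10 from old control livers (SE 0.14, adjusted p 0.908). A change in p53 protein, which is set mainly after transcription, is not measured by these counts.

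Mdm2 (chromosome 10, 117688875 to 117710758, minus strand) had 36.0, 37.65 and 32.6 CPM in young, 58.75, 31.4 and 29.3 CPM in old control and 42.9, 54.85, 44.6 and 54.6 CPM in knockout livers. Old control replicate 1 held the highest value of all 10 livers while the other old controls lay below every young liver. The young livers averaged 35.4 ± 2.57 CPM (SD, n = 3), the old control livers 39.8 ± 16.4 CPM (SD, n = 3) and the knockout livers 49.2 ± 6.37 CPM (SD, n = 4). Between old control and young livers the log2 fold change was 0.17 (SE 0.23, edgeR adjusted p 0.628) and without old control replicate 1 it was -0.23. All 4 knockout livers lay above all 3 young livers, a pattern whose share among all genes was not counted. The log2 fold change between these groups, 0.48 (SE 0.22), missed the threshold (edgeR adjusted p 0.157). It passed with total-count scaling (0.80, adjusted p 0.0373) and in a fit of the knockout and young livers alone (0.48, adjusted p 0.0159). In these settings 3585 and 4223 genes were called, in place of 1614.

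Cul9 (chromosome 17, 46500572 to 46546388, minus strand), also called PARC, encodes a large cullin that binds p53 in the cytoplasm and is a relative of Cul7. It had 3.67, 3.56 and 2.85 CPM in young livers, 11.35, 10.7 and 9.06 CPM in old control livers and 9.06, 10.03, 8.80 and 9.68 CPM in knockout livers. The lowest of the 7 old livers, with 8.80 CPM, lay far above the highest young liver, with 3.67 CPM. Old control livers had 3.08-fold and knockout livers 2.79-fold the young level, on the log2 scale 1.62 (SE 0.17) and 1.48 (SE 0.16), values that chose the gene and so carry no test. Its coefficient of variation over the 7 old livers, 9.57%, was the lowest of the 10 genes, and over the young livers it was 13.3%. This rank holds only with old control and knockout livers pooled. In old control livers the value for Cul9 was 11.3%, above those of Trp53 (6.62%) and Trp53inp1 (9.63%) alone. In knockout livers it was 5.98%, above that of Sesn1 (4.01%) alone. Cul9 was chosen by its counts in these livers, so nothing is read from the rank. From old control to knockout livers the log2 difference was -0.14 (SE 0.15, edgeR adjusted p 0.875), with an interval of -0.46 to 0.18.

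**Figure D1:**
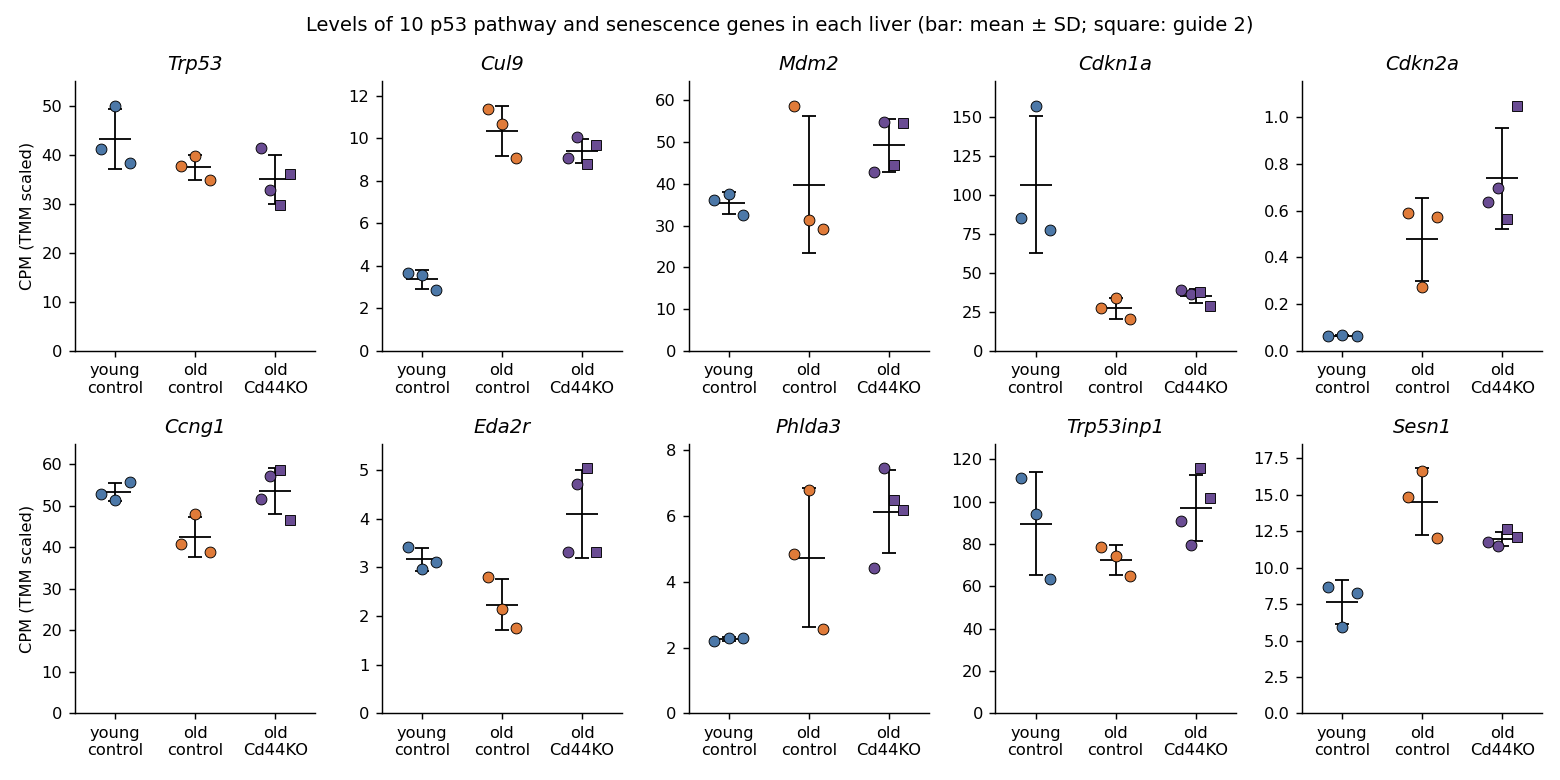
Level of each of the 10 genes (CPM with TMM factors, linear axes from 0) in 3 young control, 3 old control and 4 old Cd44 knockout livers; each point is a liver, squares are guide 2 and bars are the mean ± SD. Cul9, Cdkn2a, Phlda3 and Sesn1 are higher in all 7 old livers than in all 3 young livers, and Cdkn1a is lower.

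Bulk tissue was measured, so fewer cells of a type and less RNA per cell cannot be told apart in what follows. Cdkn1a (chromosome 17, 29090976 to 29100727, plus strand) encodes p21, the CDK inhibitor through which p53 stops the cell cycle. It had 85.3, 157.4 and 77.3 CPM in young livers, 27.5, 34.0 and 20.1 CPM in old control livers and 38.7, 36.2, 37.8 and 28.8 CPM in knockout livers. Every old liver lay below every young liver, and young replicate 2 was the highest. Cdkn1a fell 3.92-fold in old control livers (log2 fold change -1.97, SE 0.28, edgeR adjusted p 0.00667) and 3.01-fold in knockout livers (-1.59, SE 0.25, adjusted p 0.00938), both against young. Without young replicate 2 the log2 fold change with age was -1.58 and still past the threshold. Knockout and old control livers differed by 0.38 (SE 0.25, edgeR adjusted p 0.798), with an interval of -0.18 to 0.94.

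Cdkn2a (chromosome 4, 89274471 to 89294653, minus strand) encodes p16Ink4a, a CDK inhibitor, and p19Arf, an inhibitor of Mdm2, from separate start sites, and counts per gene do not divide them. It had 1 count in each of the 3 young livers, 12, 6 and 12 counts in old control livers and 11, 16, 12 and 18 counts in knockout livers. The old livers reached 0.273 to 1.05 CPM, each above the young livers, whose single counts lie below the smallest detectable amount. Summed over livers and set against library size, old control livers had 7.47 times the young level (30 counts against 3, exact 95% interval 2.32 to 38.3) and knockout livers 11.4 times (57 counts against 3, exact 95% interval 3.72 to 57.1). These intervals cover counting error only. Since the gene entered the test across all genes only through the old livers, no test against young livers is read and these values are a description. Knockout livers had 1.53 times the summed level of old control livers (exact 95% interval 0.968 to 2.47; edgeR adjusted p 0.794). Old control replicate 2 had the fewest Cdkn2a counts of the 7 old livers, with 6 counts. A relation of these few counts to the cell types in that liver was not tested.

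Of the p53 targets, Sesn1 (chromosome 10, 41809935 to 41908424, plus strand), which encodes sestrin 1, a stress protein that restrains mTORC1, had 8.69, 5.935 and 8.30 CPM in young, 14.9, 16.6 and 12.1 CPM in old control and 11.7, 11.5, 12.6 and 12.1 CPM in knockout livers. All 7 old livers lay above all 3 young livers. Sesn1 rose 1.90-fold in old control livers (log2 fold change 0.93, SE 0.17, edgeR adjusted p 0.00936) and 1.57-fold in knockout livers (0.65, SE 0.17, adjusted p 0.035). The knockout call was lost without young replicate 2 (0.49, adjusted p 0.14), and also without any of the other young livers or knockout replicates 2, 3 or 4, at adjusted p 0.0604 to 0.08. The old control call held in each of 14 alternatives, at log2 fold changes of 0.77 to 1.24.

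Phlda3 (chromosome 1, 135766119 to 135769136, plus strand), which encodes a small protein that holds back Akt signalling at the membrane, had 2.20, 2.31 and 2.28 CPM in young livers. The old control livers had 4.86, 6.79 and 2.575 CPM and the knockout livers 4.41, 7.46, 6.50 and 6.18 CPM. Young livers were tightly grouped, and old control replicate 3 lay only just above them. Phlda3 rose 2.09-fold in old control livers (log2 fold change 1.07, SE 0.33, edgeR adjusted p 0.0396) and 2.71-fold in knockout livers (1.44, SE 0.31, adjusted p 0.0235). The age call was held in 7 of 14 alternatives. It was lost without old control replicate 2 (0.71, adjusted p 0.159), without old control replicate 1 (adjusted p 0.0704) and without young replicates 1, 2 or 3 (adjusted p 0.0999, 0.113 and 0.0959). The knockout call was lost without any 1 of the young livers or of knockout replicates 2, 3 and 4, at adjusted p 0.0581 to 0.1.

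Eda2r (chromosome X, 97333840 to 97377216, minus strand) encodes a receptor for the A2 form of ectodysplasin. It had 3.43, 2.97 and 3.10 CPM in young livers, 2.80, 2.14 and 1.76 CPM in old control livers and 3.31, 4.71, 5.04 and 3.32 CPM in knockout livers. All 3 old control livers lay below all young livers, and all 4 knockout livers lay above all old control livers. How many of all genes share the former pattern was not counted. With age the log2 fold change was -0.50 (SE 0.26, edgeR adjusted p 0.176). The knockout livers were 0.88 above the old control livers (SE 0.24), a 1.84-fold difference with an interval of 0.35 to 1.41 and an unadjusted p of 0.0038, and it failed the correction over all genes (adjusted p 0.744). The 17 alternatives put this value between 0.74 and 1.07 with adjusted p from 0.145 to 0.995.

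Trp53inp1 (chromosome 4, 11156431 to 11174379, plus strand) encodes a stress protein that takes part in p53-dependent death and in autophagy. It had 111.3, 94.4 and 63.4 CPM in young livers, 78.65, 74.1 and 64.9 CPM in old control livers and 90.9, 79.7, 115.8 and 101.8 CPM in knockout livers. All knockout livers lay above all old control livers, and the young livers spanned nearly the whole range of both. Trp53inp1 had a log2 difference of 0.42 between knockout and old control livers (SE 0.19, edgeR adjusted p 0.748) and of -0.30 between old control and young livers (SE 0.20, adjusted p 0.289), the latter 0.016 with total-count scaling.

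Ccng1 (chromosome 11, 40748552 to 40755311, minus strand) encodes cyclin G1, a p53 target that recruits a phosphatase to Mdm2. It had 52.9, 51.4 and 55.8 CPM in young, 40.8, 48.1 and 38.8 CPM in old control and 51.75, 57.3, 58.7 and 46.7 CPM in knockout livers. The old control livers were below all young livers, a pattern whose share among all genes was not counted, and knockout replicate 4 was below the highest old control liver. The log2 fold change was -0.33 with age (SE 0.13, edgeR adjusted p 0.0855) and 0.33 between knockout and old control (SE 0.12, adjusted p 0.744). The values of Eda2r, Trp53inp1 and Ccng1 in these comparisons share the old control livers, so a low value in those livers enters both.

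**Figure D2:**
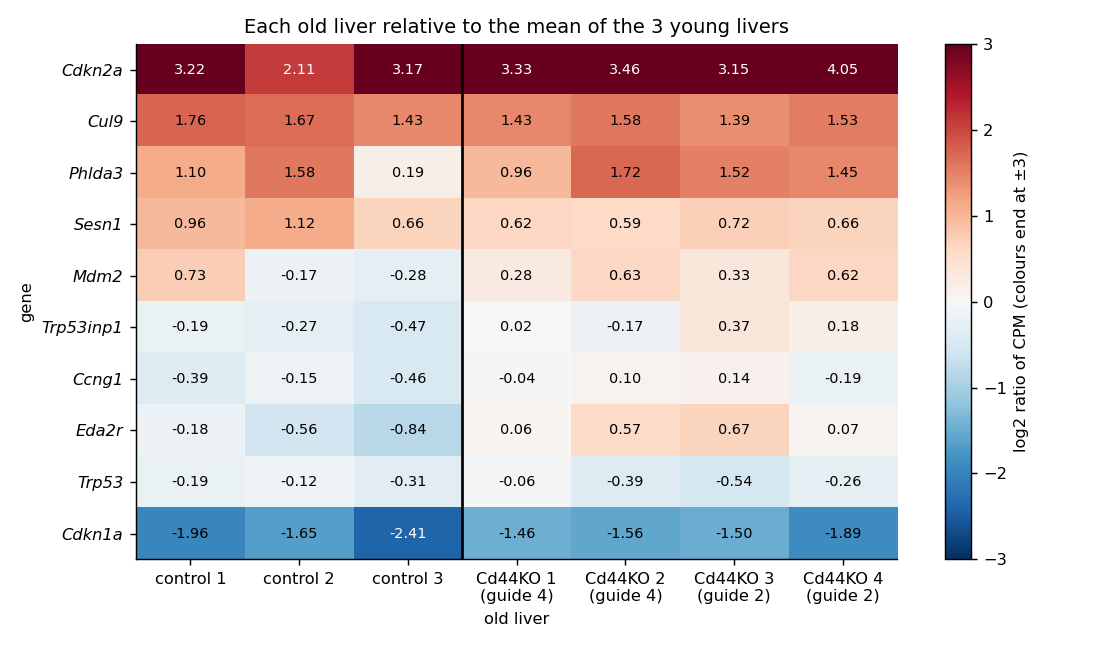
Log2 ratio of CPM of each old liver (columns) to the mean of the 3 young livers for each gene (rows), with red above and blue below the young mean and colours that end at ±3. Cdkn1a lies between -2.41 and -1.46 and Cul9 between 1.39 and 1.76 in all 7 livers, whereas Phlda3 in control 3 is at 0.19 and Mdm2 is above 0 in control 1 and below it in controls 2 and 3; the Cdkn2a ratios rest on 1 count in each young liver.

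Counted over the members other than Cul9 and Cdkn2a, 3 of 8 passed the test between old control and young livers, Phlda3 and Sesn1 higher and Cdkn1a lower. Of all 13909 genes 22.8% passed, 14.1% higher and 8.66% lower in the old livers. The median log2 fold change of these 8 genes was -0.256 and that of all genes 0.035, with 3 of the 8 above and 5 below 0. Trp53, Mdm2, Ccng1, Eda2r and Trp53inp1 did not pass.

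Between old knockout and young livers Phlda3 and Sesn1 were higher and Cdkn1a was lower, again 3 of 8, where 11.6% of all genes passed, 6.64% higher and 4.97% lower. This comparison shares the young livers with the age comparison, so the 2 results are not independent. The median log2 fold change of these 8 genes was 0.244 here and that of all genes 0.026. With guide 2 livers alone 1 of the 8 passed, Cdkn1a, where 677 of all genes did. With guide 4 livers alone 0 of the 8 passed, where 36 of all genes did, and Cdkn1a had an edgeR adjusted p of 0.0687.

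Between old knockout and old control livers 0 of 10 members passed, and 0% of all genes did, by edgeR's quasi-likelihood test. At an unadjusted p under 0.05 stood Eda2r, Ccng1 and Trp53inp1, and 916 of all genes (6.59%), whereas DESeq2 called 8 genes, none of them a member. The median log2 fold change was 0.35 over the 10 genes and -0.024 over all genes. Eda2r and Trp53inp1 had all 4 knockout livers above all 3 old control livers, a pattern that 2.84% of all genes showed.

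Between guide 4 and guide 2 livers, 2 of each, 0 of 10 members passed. The difference largest in size was -0.35, in Trp53inp1 (SE 0.23, interval -0.87 to 0.17), each member had an edgeR adjusted p of 0.9995, and 0.0216% of all genes, 3 in number, passed. For Eda2r the difference from the old control livers was 0.91 with guide 2 (SE 0.29, edgeR adjusted p 0.55) and 0.85 with guide 4 (SE 0.29, adjusted p 0.98). For Trp53inp1 it was 0.58 with guide 2 (SE 0.21, adjusted p 0.608) and 0.23 with guide 4 (SE 0.21, adjusted p 0.98).

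**Figure D3:**
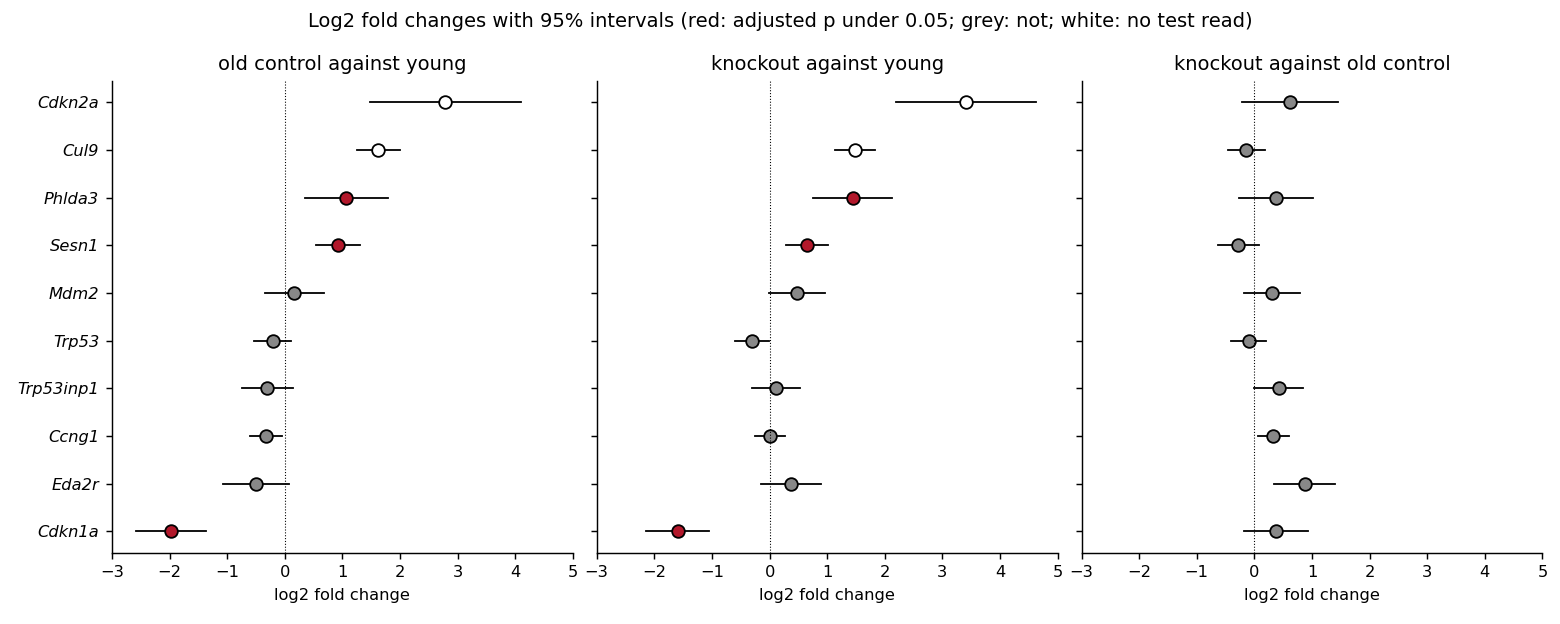
Log2 fold change of each gene (points) with its 95% interval (lines) in 3 comparisons; red marks an edgeR adjusted p under 0.05, grey a gene that did not pass and white Cul9 and Cdkn2a against young livers, where no test is read. The red points are Phlda3, Sesn1 and Cdkn1a in both comparisons with young livers, and no point is red between knockout and old control livers.

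Looked at liver by liver, 2 of these 8 genes, Phlda3 and Sesn1, were higher in all 7 old livers than in all 3 young ones, as were 13.4% of all genes tested. Cdkn1a was lower in all 7, as were 11.1% of all genes. Cul9 and Cdkn2a were also higher in all 7, from which nothing is read. The remaining 5 members overlapped between old and young livers.

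Levels were set side by side per kilobase of exon. In young livers Cdkn1a was highest at 30.02 ± 12.4 CPM per kilobase (SD, n = 3), ahead of Ccng1 at 15.2 ± 0.64, Trp53inp1 at 13.8 ± 3.75 and Trp53 at 10.7 ± 1.51. Then came Mdm2 at 6.97 ± 0.506, Sesn1 at 1.92 ± 0.374, Phlda3 at 1.45 ± 0.0351, Eda2r at 0.537 ± 0.04, Cul9 at 0.276 ± 0.0365 and Cdkn2a at 0.0542 ± 0.00204. Over the livers the ranges of Ccng1 and Trp53inp1 overlapped, as did those of Trp53inp1 and Trp53, and no other neighbours in this order did.

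In old control livers Cdkn1a stood only in the fifth place, at 7.65 ± 1.96 CPM per kilobase (SD, n = 3), behind Ccng1 at 12.1 ± 1.39, Trp53inp1 at 11.2 ± 1.08, Trp53 at 9.25 ± 0.612 and Mdm2 at 7.83 ± 3.23. The range of Mdm2 overlapped with those of Ccng1, Trp53inp1, Trp53 and Cdkn1a, and that of Cdkn1a with that of Trp53. The ranges of Ccng1 and Trp53inp1 overlapped, as did those of Sesn1 at 3.65 ± 0.578 and Phlda3 at 3.04 ± 1.35. Cul9, at 0.849 ± 0.0962, had passed Eda2r, at 0.379 ± 0.089. Cdkn2a, at 0.408 ± 0.152, overlapped with Eda2r. In knockout livers the order began with Ccng1 at 15.3 ± 1.56, Trp53inp1 at 15.0 ± 2.38, Cdkn1a at 9.96 ± 1.26, Mdm2 at 9.69 ± 1.25 and Trp53 at 8.65 ± 1.23 CPM per kilobase (SD, n = 4), and the ranges of the last 3 overlapped. Phlda3 at 3.94 ± 0.815 and Sesn1 at 3.01 ± 0.121 overlapped too, and so did Cul9 at 0.77 ± 0.046, Eda2r at 0.695 ± 0.154 and Cdkn2a at 0.63 ± 0.183.

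Cul9 and Cdkn1a were each set against all other tested genes by Pearson's r of log2 CPM over the 10 livers, as a description of points that fall into young and old clusters. The closest to Cul9 were Hsf2bp (r 0.989), Fmn1 (0.986), Tonsl (0.98), Zc3h6 (0.977) and Rpusd1 (0.974). Hsf2bp had 1.20 to 1.58 CPM in young livers, 3.92 to 4.57 in old control and 3.30 to 4.14 in knockout livers. The closest to Cdkn1a were Med7 (r 0.969), Exosc2 (0.962), Zfp706 (0.959), Gm13363 (0.956) and Ptp4a1 (0.956). Ptp4a1 had 248.7 to 345.9 CPM in young livers, 109.1 to 125.7 in old control and 122.5 to 157.7 in knockout livers. Of the other members, Cdkn2a (0.898) and Sesn1 (0.879) were nearest to Cul9 in this measure.

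Around these genes, lists of p53 pathway, senescence and proliferation genes were counted, and 0 genes of any of them passed between knockout and old control livers or between guides. Of all genes tested 14.1% rose and 8.66% fell with age, around a median of 0.035, and a list with shares near these shows nothing of its own. Among 16 regulators of p53, 2 rose and 2 fell with age, close to those shares. Chek2, a kinase of the damage response, rose 2.82-fold (log2 fold change 1.49, SE 0.30, edgeR adjusted p 0.0101). Cul7, the relative of Cul9, rose 1.91-fold (0.94, SE 0.14, adjusted p 0.00762), with 5.87 to 7.16 CPM in young and 11.4 to 13.5 CPM in old control livers. Knockout livers had 8.33 to 8.85 CPM of Cul7, apart from both other groups, at -0.52 against old control (SE 0.13, adjusted p 0.744). Rchy1 and Cop1, the latter under an older symbol in the table, encode ubiquitin ligases for p53 and fell by 0.48 and 0.38 on the log2 scale (adjusted p 0.0242 and 0.0356). Neither of these falls passed with upper-quartile or total-count scaling.

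Between knockout and young livers Chek2 and Atm rose (1.02 and 0.62 on the log2 scale, edgeR adjusted p 0.0436 and 0.0484) and Cop1 fell by 0.47 (adjusted p 0.0265). These are 2 higher and 1 lower of 16, where 6.64% of all genes rose and 4.97% fell. The median log2 fold change of the 16 regulators was 0.09 with age and 0.002 for knockout against young, and that of all genes 0.035 and 0.026.

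Of 13 tested arrest and repair targets of p53, Ddb2, a DNA repair gene, rose with age (0.63, SE 0.14, edgeR adjusted p 0.0148) and Zmat3 fell by 0.48 (SE 0.13, adjusted p 0.0237), the latter not with upper-quartile or total-count scaling. The list's median was 0.12, and 1 of 13 in each direction is near the shares of all genes. Ddb2 also rose in knockout against young livers (0.53, edgeR adjusted p 0.0352), 1 of 13, where 6.64% of all genes rose.

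Of 12 death targets, 5 rose and 3 fell with age, around a median of 0.066, where 14.1% of all genes rose and 8.66% fell around 0.035. The BH3-only death gene Pmaip1 rose 2.77-fold (adjusted p 0.0267 in edgeR), the apoptosome gene Apaf1 2.11-fold (adjusted p 0.016) and Siva1 1.98-fold (adjusted p 0.043). The autophagy gene Dram1, counted among the 5, was 3.04-fold higher. With 6 to 30 counts in young livers Dram1 could not have passed the filter on those livers alone, so its test is not read. Aen, an apoptosis nuclease, fell by 0.69 on the log2 scale (adjusted p 0.00925), Ei24 by 0.48 (adjusted p 0.0299) and the death receptor gene Fas by 0.48 (adjusted p 0.0284). The falls of Ei24 and Fas did not pass with upper-quartile or total-count scaling. In knockout against young livers Pmaip1 and Siva1 rose (1.38 and 1.02 on the log2 scale, edgeR adjusted p 0.0433 and 0.0482). These are 2 higher and 0 lower of 12, where 6.64% of all genes were higher and 4.97% lower.

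Of 7 metabolic targets, Lpin1, a phosphatidate phosphatase, fell by 0.99 (edgeR adjusted p 0.0152) and Tigar, a regulator of glycolysis, by 0.66 (adjusted p 0.0203) with age, and 0 rose, where 8.66% of all genes fell. The fall of Tigar did not pass with total-count scaling. Cpt1c, also in this list, had 6 to 11 young counts and could not have passed the filter on the young livers alone. Lpin1 fell by 0.97 in knockout against young livers (edgeR adjusted p 0.0236), 1 of 7, where 4.97% of all genes fell.

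Among 13 other CDK inhibitors and senescence markers, 4 rose and 0 fell with age, with a median of 0.83, where 14.1% of all genes rose and the median was 0.035. The list's median takes in Cdkn2b, which with 1 to 11 young counts could not have passed the filter on the young livers alone. Those that rose were the inhibitor Cdkn2d (0.96, edgeR adjusted p 0.0424), the retinoblastoma relative Rbl1 (1.15, adjusted p 0.0242), the lamin gene Lmnb1 (0.95, adjusted p 0.044) and the chromatin gene Hmgb2 (1.67, adjusted p 0.0143). Lmnb1 and Hmgb2 are genes whose loss, not gain, is a common sign of senescence, and both are higher in dividing cells. Hmgb2 had 8.11, 9.63 and 25.05 CPM in the old control livers in rising order and at most 4.89 CPM in the young livers. Knockout against young livers showed 1 of these 13 genes higher, Cdkn2d (1.02, edgeR adjusted p 0.0436), where 6.64% of all genes were, so the count is near that share.

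Of 16 tested genes of the senescence secretory list, 3 were called higher with age: Mmp13, a collagenase (1.51), the cytokine Il1a (1.45, edgeR adjusted p 0.0081) and the growth factor Hgf (1.04, adjusted p 0.0363). Mmp13 had 5 to 12 counts in young livers and passed the filter only through the old livers, so no test of it against young livers is read. The list's median also takes in Ccl8 (1 to 7 young counts), Tnf (4 to 16), Mmp12 (0 to 26), Timp1 (7 to 16) and Cxcl2 (0 to 18). None of these could have passed the filter on the young livers alone. Il6, Mmp3 and Areg did not pass the filter on low counts. In knockout against young livers Mmp13 was higher by 2.09, Il1a rose by 0.85 (edgeR adjusted p 0.044) and the chemokine gene Cxcl1 fell by 2.29 (adjusted p 0.0314). With age 3 of 16 is near the 14.1% of all genes that rose, and between knockout and young livers 2 higher and 1 lower stand beside 6.64% and 4.97% of all genes. The median was 0.95 with age and 0.61 for knockout against young, where that of all genes was 0.035 and 0.026.

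Proliferation genes had the largest median change of the 7 lists with age. Of 20, 13 rose and 0 fell with age, with a median log2 fold change of 1.74, and 10 rose and 0 fell between knockout and young livers, with a median of 1.39. Ccnb1, Aurkb, Bub1, Foxm1 and Plk1 had 2 to 6, 2 to 7, 2 to 3, 4 to 12 and 6 to 11 counts in young livers. They passed the filter only through the old livers, so they are higher there by that choice. The counts and medians of the list take them in. Of all genes 14.1% rose with age and 6.64% between knockout and young livers. Mki67, a marker of cycling cells, rose 8.47-fold with age (edgeR adjusted p 0.011) and 5.19-fold in knockout against young livers (adjusted p 0.0352). Foxm1, a transcription factor of the late cell cycle, was 6.36-fold higher with age and 5.22-fold higher in knockout against young livers. Ccnb1 and Aurkb were higher by 3.21 and 2.76 on the log2 scale with age. Because of how Foxm1, Ccnb1 and Aurkb passed the filter, no test of them against young livers is read. Summed over the list, levels were 74.8, 87.5 and 73.7 CPM in young livers, 95.55, 215.6 and 187.2 CPM in old control livers and 128.7, 133.9, 125.9 and 169.9 CPM in knockout livers. Every old liver lay above every young liver in this sum. Its largest part was Ccnd1, which overlapped between young (40.25 to 56.9 CPM) and old livers (49.3 to 104.9 CPM). Every old liver lay below every young liver in Cdkn1a, and a link to the sum was not tested. Old control replicate 1, the lowest of the old livers in this sum, held the highest Mdm2.

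The calls outside the 10 members rested on few livers. With each liver left out in turn, 4 of 26 named calls of the age comparison held throughout, those of Cul7, Aen, Il1a and Foxm1. The other 22 were lost without at least 1 liver, at adjusted p of up to 0.164, as were all 15 named calls between knockout and young livers, at up to 0.172. Calls of Foxm1, Ccnb1, Aurkb, Dram1 and Mmp13 are counted here although these genes passed the filter only through the old livers. That the Foxm1 call held is therefore no support for a rise. Without old control replicate 2 the proliferation list had 6 genes higher with age and a median of 1.32, and without young replicate 2 it had 1 gene higher and a median of 1.71. Between knockout and young livers that list had 0 genes higher without young replicate 2 or 3, at medians of 1.33 and 1.34. Without old control replicate 2 the log2 fold change with age was 1.85 for Mki67, 1.79 for Aurkb, 0.98 for Hmgb2 and 0.88 for Pmaip1. Without young replicate 1 that of Foxm1 was 3.26, and without young replicate 2 Cxcl1 fell by 1.65 in knockout against young livers.

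**Figure D4:**
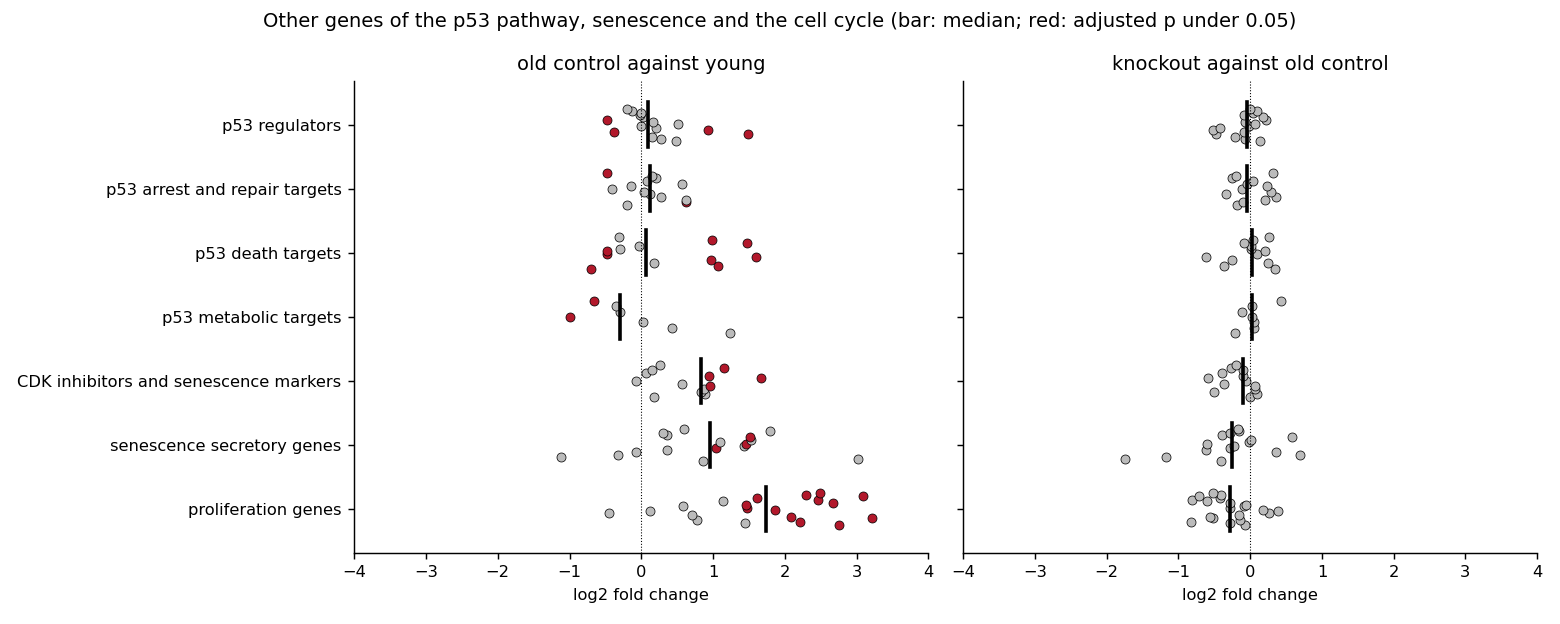
Log2 fold change of each tested gene (points) of 7 lists around the 10 members, for old control against young and for knockout against old control; bars are medians and red marks an edgeR adjusted p under 0.05. With age 13 of 20 proliferation genes are red and to the right of 0, and no gene is red between knockout and old control livers. The red points with age include Ccnb1, Aurkb and Foxm1, which passed the filter only through the old livers.

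Markers of some other cell types differed with age beside these results. Only the endothelial, stellate cell and B cell sums were higher in all 7 old livers than in all 3 young ones. The sum of 5 hepatocyte markers was 94610 to 121800 CPM in young, 79730 to 103500 in old control and 84670 to 88950 in knockout livers, so hepatocyte RNA was abundant in every library. This sum is mostly Alb. Of its members only Serpina1c was lower in all 7 old livers than in all 3 young ones, and the others overlapped. Summed levels of 5 endothelial markers were 106.2 to 155.3 CPM in young, 240.3 to 262.1 in old control and 163.6 to 186.9 in knockout livers, and those of 5 stellate cell markers 133.3 to 204.2, 268.7 to 403.1 and 231.2 to 271.7 CPM. The 6 monocyte and macrophage markers summed to 55.9 to 97.9, 112.9 to 576.8 and 93.9 to 256.4 CPM, the 4 Kupffer cell markers to 89.5 to 137.8, 161.9 to 639.1 and 125.0 to 257.6 CPM. The Kupffer cell sum is mostly Clec4f, with means of 70, 239.3 and 118.3 CPM in this order. Clec4f and Vsig4 were higher in all 7 old livers than in all 3 young ones. Timd4 and Marco overlapped, and Marco had means of 14.6, 11.6 and 8.03 CPM in this order. The 5 T cell markers summed to 2.15 to 3.23, 3.05 to 39.8 and 6.65 to 19.4 CPM, the 5 B cell markers to 3.42 to 7.71, 8.01 to 33.2 and 20.5 to 28.4 CPM, and the 5 neutrophil markers to 3.29 to 8.63, 13.3 to 237.5 and 7.26 to 19.9 CPM. The neutrophil marker Ly6g was at 0 counts in all young livers and no other marker was at 0 in a whole group. The T cell, monocyte and macrophage, Kupffer cell and neutrophil sums overlapped between young and old livers, as did those of 4 cholangiocyte markers. The sum of 5 megakaryocyte and erythroid markers overlapped too, at 121.2 to 169.5, 97.9 to 150.1 and 76.7 to 123.2 CPM, but is mostly Alas2, at 117.2 to 165 CPM in young and 68.35 to 107.9 CPM in old livers. Of its other members Pf4 (0.306 to 0.76 CPM in young, 1.05 to 50.55 CPM in old livers), Itga2b (2.08 to 2.91 and 3.3 to 12.43 CPM) and Klf1 (1.06 to 1.59 and 2.34 to 5.15 CPM) were higher in all 7 old livers than in all 3 young ones. The part of these cells in the rises of Cul9, Cdkn2a, Phlda3, Sesn1 and the proliferation genes was not tested. Without old control replicate 2, the liver with the highest immune sums, the log2 fold change with age was 1.60 for Cul9, 0.82 for Sesn1, -2.17 for Cdkn1a and 3.06 for Cdkn2a. Nothing is read from the values of Cul9, chosen for its rise, and Cdkn2a, which passed the filter only through the old livers. Sesn1 and Cdkn1a remained past the threshold. Phlda3 did not, at 0.71 on the log2 scale (adjusted p 0.159 in edgeR), and the proliferation list had 6 genes higher with age in place of 13.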

How the data were processed

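Polyadenylated RNA of 10 mouse livers was prepared with the Watchmaker kit and read from both ends on an AVITI sequencer, per the labels' protocols. The counts deposited by the authors are unnormalized whole reads, with a row for each gene symbol and a column for each liver. Per the submitters' processing notes, FastQC 0.11.8, Trim Galore 0.4.4, STAR 2.5.3a, HOMER and the build mm10 were used; which annotation was counted, and whether by strand, is not given in the sources used here. An exon of Cdkn1a overlaps an opposite-strand transcript over 273 bases, and a share of its counts could belong to that transcript.

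Groups follow the labels, and replicate numbers only name a liver. Counts were tested with edgeR 4.0.16 in R 4.3.3, in a quasi-likelihood fit of all 10 libraries with a term for each group, TMM factors and filterByExpr (minimum count 10, minimum total 15). The Benjamini-Hochberg adjustment ran over 13909 genes, of 24537 in the table, of which 5807 had no count. A gene was called at an adjusted p under 0.05. Standard errors are the size of the log2 fold change over the root of its F statistic, and 95% intervals use them with the t quantile. The biological coefficient of variation was 21.8%. Positions are from GENCODE M21 and promoter windows from RefSeq on GRCm38.p6. Log2 CPM had a prior count of 2.

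The members, lists and tests were chosen with earlier results of these data known. The text gives the levels or counts of all 10 members in every liver, and fitted values of each member for some of the comparisons. From each pathway list it names the genes past the threshold against young livers, at most 4 per direction and comparison by size of log2 fold change, and the 5 genes closest in pattern to Cul9 and to Cdkn1a. DESeq2 1.42.0, limma 3.58.1 (voom), other scaling factors, other filters, fits of the compared groups alone, single guides and leaving out each liver were run as alternatives.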

Additional observations from a re-analysis of the deposited data

Results flagged for a closer look

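Of 55 levels and summed levels examined in the 4 knockout livers, 3 had a liver far from the others, its gap to the nearest liver, as a part of the group's whole range, being above Dixon's 95% critical value. Chance puts about 1 in 20 there, or 2.8 of 55. Mmp13 had 3.73 CPM in knockout replicate 4 and 1.98 to 2.12 CPM in the other knockout livers, a gap of 0.918 of the range. Kupffer cell markers summed to 257.6 CPM in knockout replicate 2 and to 125.0 to 145.3 CPM in the others, a gap of 0.847. Endothelial markers summed to 186.9 CPM in the same liver and to 163.6 to 166.9 CPM in the others, a gap of 0.858. None of the 10 members had such a liver among the knockout livers. The control groups of 3 livers were not examined in this way.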

How the results depend on the processing

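No paired analysis was possible because nothing ties a liver of one group to a liver of another. With age, 3172 genes were called over all groups and 1192 when only the groups compared were fitted, and 396 (without young replicate 2) to 5327 (without old control replicate 3) with 1 liver left out. Members called, Cdkn2a counted, went from 4 to 2 with only the groups compared, where Cdkn2a was not tested, and to between 2 and 4 with a liver left out. Between knockout and old control 8 genes were called by DESeq2, 3 with guide 2 livers only, and 0 to 3 with a liver left out (3 without old control replicate 1). Between knockout and young, 1614 became 2803 with DESeq2, 969 with voom, 3585 with total counts, 4223 with only the groups compared, 677 with guide 2 and 36 with guide 4 livers, and 56 (without young replicate 2) to 3281 (without old control replicate 3) with a liver left out. Members called, Cdkn2a again counted, became 2 with guide 2 and 0 with guide 4 livers, and 1 to 4 with a liver left out, 1 without young replicate 2. Between guides 3 genes became 73 with DESeq2, 10 without a filter, 31 with only the groups compared, and 0 with any liver left out, where the lone liver of an arm is assumed to vary like the others. The cause of these differences was not tested.

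Total-count scaling and the omission of old control replicates 2 and 3 from the knockout against young fit were chosen after seeing the data. Total counts moved the median of all genes by 0.308 with age and 0.319 for knockout against young, and upper-quartile factors by 0.112 and 0.111. Of the genes called with age 62% were higher, 91.6% with total counts and 77.6% with upper-quartile factors. For knockout against young these shares were 57.2%, 92.9% and 75.6%.

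No called value changed sign in any alternative. Uncalled ones did: with age, Trp53 (0.11) and Trp53inp1 (0.016) with total counts, and Mdm2 without old control replicate 1 (-0.226, to 0.343 with other livers left out). Between knockout and young this held for Trp53 with total counts (0.02), and for Trp53inp1 with guide 4 livers only (-0.073) and over livers left out (-0.087 to 0.296). Ccng1, at 0.008, became -0.007 with DESeq2, -0.007 with RLE factors, -0.017 with guide 2 livers only, and -0.042 to 0.069 over livers left out. Between guides, livers left out gave -0.028 to 0.118 for Cul9, -0.208 to 0.146 for Mdm2, -0.015 to 0.378 for Cdkn1a, -0.642 to 0.243 for Cdkn2a, -0.105 to 0.224 for Ccng1, -0.34 to 0.275 for Eda2r and -0.522 to 0.234 for Phlda3.

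Depth limits Cdkn2a, whose young level rests on 3 counts in all.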
